A study of Mus musculus with 12 samples.

Results

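Macrophages touch the matrix around them through integrins and through a varied set of other surface proteins, and 9 genes of that second kind are described here in bone marrow-derived macrophages (BMDMs). They were chosen by name, with earlier results of these data known: Lair1, Mrc2, Ddr1, Ddr2, Cd44, Sdc1, Sdc3, Sdc4 and Dag1. They are 9 of the 34327 genes of the deposited expression table. Levels are given in TPM, a transcript abundance that is already divided by transcript length and scaled to a common total in each library, so that genes can be set side by side. The 9 genes fell into 6 that were well above 1 TPM on average (Lair1, Cd44, Sdc1, Sdc3, Sdc4 and Dag1) and 3 that were not (Mrc2, Ddr1 and Ddr2), and the second set was left out of the tests.

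The cells were wild-type macrophages grown from the marrow of C57BL/6 mice (C57BL/6J in the culture protocol) in medium conditioned by L929 cells. They were cultured for 24 h in 3 settings: embedded in floating gels of rat tail collagen I at 2 mg/ml (low-collagen gels), embedded in the same gels at 7 mg/ml (high-collagen gels), or on tissue culture plates (TC plates) with no gel. In each setting they were left untreated or were given recombinant murine IL-4 at 20 ng/ml, the cytokine that directs macrophages toward tissue repair, which makes 6 conditions with 2 RNA-seq libraries each, 12 in all. The study used the gels to ask how the state of the matrix changes the response to IL-4. The labels do not say whether the 2 libraries of a condition came from separate animals or cultures, so the p-values measure the spread between these libraries, which may be technical.

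LAIR1 is an inhibitory receptor of leukocytes that binds collagens and the collagen-like tail of C1q and signals through phosphatases and the kinase CSK. MRC2 (Endo180) takes up collagen for degradation, and DDR1 and DDR2 are receptor tyrosine kinases that are switched on by triple-helical collagen. CD44 binds hyaluronan and is tied to actin by the ezrin, radixin and moesin proteins. Syndecans (Sdc1, Sdc3, Sdc4) are membrane proteoglycans that bind collagens, fibronectin and growth factors through their heparan sulfate chains, and dystroglycan (Dag1) binds laminin through its sugars and dystrophin or utrophin inside the cell.

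The libraries had 11543 to 11910 genes at 1 TPM or more, and the 2 libraries of each condition correlated at 0.98 to 0.985. All 6 macrophage markers (Adgre1, Csf1r, Itgam, Cd68, Mertk and Fcgr1) were at 1 TPM or more in every condition. Their sum was 3748 to 4237 TPM on TC plates and 4483 to 4754 TPM in gels. The sums of the other marker lists were small: at most 0.497 TPM for 5 epithelial genes, 0.112 TPM for 4 mast cell genes, 1.25 TPM for 5 B and plasma cell genes, 3.46 TPM for 5 eosinophil genes, 9.54 TPM for 9 fibroblast genes and 12.03 TPM for 4 T cell genes. The fibroblast sum was 1.38 to 3.01 TPM in untreated gels and 5.32 to 9.54 TPM in gels with IL-4, through Postn, listed at 0 without IL-4 and at 3.66 to 8.03 TPM with it there. Postn and Thy1 were the fibroblast markers that reached 1 TPM in any library, while Col1a1, Col1a2, Col3a1, Pdgfra, Pdgfrb, Dcn and Lum reached at most 0.474 TPM. The T cell sum was 1.45 to 2.75 TPM on TC plates and 3.45 to 12.03 TPM in gels, through Cd4, and Cd3e, Cd3d and Cd8a reached at most 0.429 TPM. The 6 neutrophil genes summed to 4.08 to 9.16 TPM on TC plates and 12.8 to 30.4 TPM in gels, mostly as S100a8 and S100a9. In high-collagen gels with IL-4, S100a8 was at 2.93 and 4.69 TPM, within its range on TC plates (2.79 to 6.17 TPM). Mpo, Elane and Camp reached at most 0.482 TPM, and Ly6g was listed at 0 in all 12 libraries.

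Of Lair1, Mrc2, Ddr1 and Ddr2, only Lair1 was well above 1 TPM. Lair1 stood at 75.2 to 160.2 TPM. Mrc2 never passed 0.258 TPM and was listed at 0 in 4 libraries, and Ddr1 was listed at 0 in 11 libraries and at 0.0352 TPM in the other. Ddr2 was erratic, listed at 0 in 3 libraries and at 1 TPM or more in 4. It was at 2.74 and 0 TPM in the untreated low-collagen gels, 0 and 1.12 TPM in the low-collagen gels with IL-4, 0.0438 and 2.45 TPM in the untreated high-collagen gels, 0.0356 and 1.46 TPM in the high-collagen gels with IL-4. It was at 0 and 0.0197 TPM on untreated TC plates and 0.868 and 0.0441 TPM on TC plates with IL-4. In each of the 4 conditions where it reached 1 TPM in a library, the other library was under 0.05 TPM. Of its 6 annotated transcripts, of 442 to 8590 bases, the table does not say which one carried the reads. A 0 in a table without counts may be a failed estimate, so these genes are described as listed at 0 and not as silent.

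Genes listed as other routes to collagen were set beside them. Among the collagen-binding integrin chains, the shared β1 chain Itgb1 was at 236 to 461 TPM, whereas its collagen-specific partners were low: Itga1 at most 0.889 TPM, Itga2 at most 0.466 TPM, Itga10 at most 1.15 TPM, and Itga11 listed at 0 in all 12 libraries. Of 9 further genes listed here as non-integrin collagen receptors, 4 were abundant. These included the mannose receptor Mrc1 (327 to 1380 TPM) and the scavenger receptor Cd36 (95.2 to 1982 TPM). With them were the scavenger receptors Msr1 (57.8 to 429 TPM) and stabilin-1, Stab1 (186 to 736 TPM). The adhesion receptors Adgrg1 (0.945 to 4.81 TPM) and Adgrg6 (0.314 to 8.33 TPM) were low. The platelet and osteoclast collagen receptors Gp6 (at most 0.12 TPM) and Oscar (at most 0.215 TPM) were near 0. The M-type phospholipase A2 receptor Pla2r1 was at 0.0513 to 1.75 TPM, with 1 library at 1 TPM or more.

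**Figure D1:**
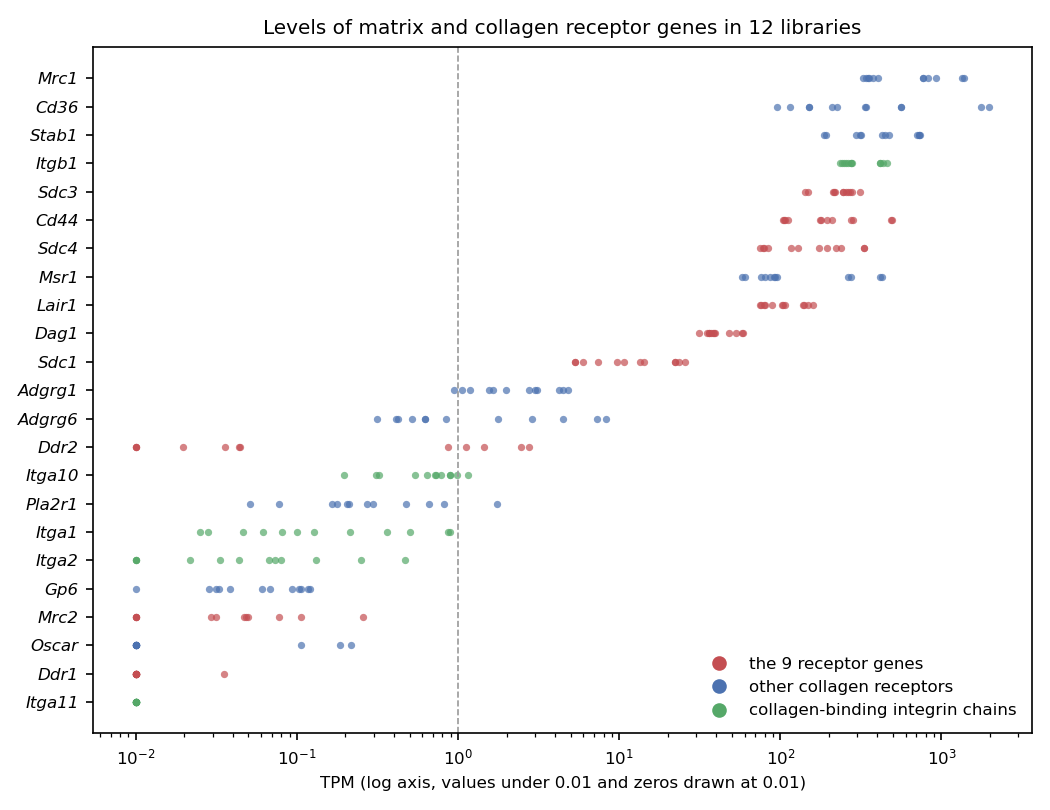
Levels of the 9 receptor genes (red), 9 other collagen receptors (blue) and 5 collagen-binding integrin chains (green) in the 12 libraries, 1 point per library, in TPM on a log axis with values under 0.01 drawn at 0.01 and a dashed line at 1 TPM. Sdc3, Cd44, Sdc4, Lair1, Dag1 and Sdc1 lie to the right of the line in every library, and Mrc2, Ddr1 and Itga11 lie to its left in every library.

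Lair1 (ENSMUSG00000055541) lies on chr7:4003402-4063204 of GRCm38, minus strand. Its level was 75.2 and 79.5 TPM in the untreated low-collagen gels, 107.5 and 103 TPM in IL-4-treated low-collagen gels, 75.4 and 79.9 TPM in untreated high-collagen gels, 89.4 and 103 TPM in IL-4-treated high-collagen gels, 139 and 140.5 TPM on untreated TC plates and 148 and 160.2 TPM on TC plates with IL-4. The TC plates lay above both kinds of gel, and within each kind of gel both IL-4 libraries lay above both untreated ones. Such separation, in either direction, was common over all tested genes. With IL-4 against untreated, 68.2% had no overlap in low-collagen gels and 61.2% in high-collagen gels. For either gel against TC plates at the same treatment it was 78.8% to 80.9%. IL-4 raised Lair1 in low-collagen gels, from 77.4 ± 3.01 to 105 ± 3.09 TPM (SD, n = 2 in each group). That is 0.44 on the log2 scale (SE 0.0852, with an adjusted p of 0.00716 from limma on log2(TPM + 1), with p-values adjusted over all genes by the Benjamini-Hochberg method and a gene called at an adjusted p under 0.2). In high-collagen gels the rise was 0.30 (SE 0.0852, adjusted p = 0.0505), and that call was lost without the first untreated library (0.26, adjusted p = 0.216) or the second IL-4 library (0.20, adjusted p = 0.217) of those gels. On TC plates the difference of 0.14 (SE 0.0774) did not pass (adjusted p = 0.236), though it did in 4 of 20 alternatives. It passed rescaled by the median ratio (0.20, adjusted p = 0.054), quantile normalized (0.15, adjusted p = 0.153) or without either high-collagen library with IL-4 (0.14, adjusted p = 0.17 and 0.169). The high- and low-collagen gels did not differ beyond their spread without IL-4, where the difference was 0.00 with a 95% interval from -0.19 to 0.20. With IL-4 the difference of -0.13 (high against low collagen, SE 0.0852) did not pass (adjusted p = 0.39). It did when rescaled by the median ratio (-0.22, adjusted p = 0.146).

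Gels against TC plates gave the largest Lair1 differences, with the mean of both gels lower by 0.84 in untreated cells (log2 fold change -0.84, SE 0.067, adjusted p = 2.67e-06) and lower by 0.61 with IL-4 (log2 fold change -0.61, SE 0.067, adjusted p = 2.53e-05). The order of the condition means ran from TC plates with IL-4 (154 TPM) through untreated TC plates and then the IL-4-treated low-collagen and high-collagen gels (105 and 96.1 TPM) to the 2 untreated gels, whose libraries overlapped at 77.4 and 77.7 TPM.

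Promoter sequence was read for these genes from the RefSeq table for GRCm38.p6, which had 12 windows for 8 of the 9 genes and none for Mrc2. Each window runs from 250 bases before to 50 after a transcription start, and only bases before it are printed. The letters TTC followed by any 4 bases and then GAA, the spacing that STAT6, the transcription factor downstream of IL-4, is known to bind, were searched on both strands. They occurred in 6.95% of 32851 promoter windows and in 3 of the 12 receptor windows, 1 each of Lair1, Cd44 and Dag1. The stretches are shown because Lair1 and Cd44 rose with IL-4 in gels and Dag1 did not pass there. All 3 lie upstream of their gene, on its minus strand, and touch no exon of the GENCODE M21 annotation. The match is in capitals, and it starts 81 bases before the start in Lair1 (chr7:4063251-4063310), 211 in Cd44 (chr2:102901842-102901901) and 194 in Dag1 (chr9:108264118-108264177). A match describes these letters only.
Lair1: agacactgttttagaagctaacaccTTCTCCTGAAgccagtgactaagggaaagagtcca
Cd44: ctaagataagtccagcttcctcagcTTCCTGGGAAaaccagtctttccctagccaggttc
Dag1: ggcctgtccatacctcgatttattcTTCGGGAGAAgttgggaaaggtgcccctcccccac

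**Figure D2:**
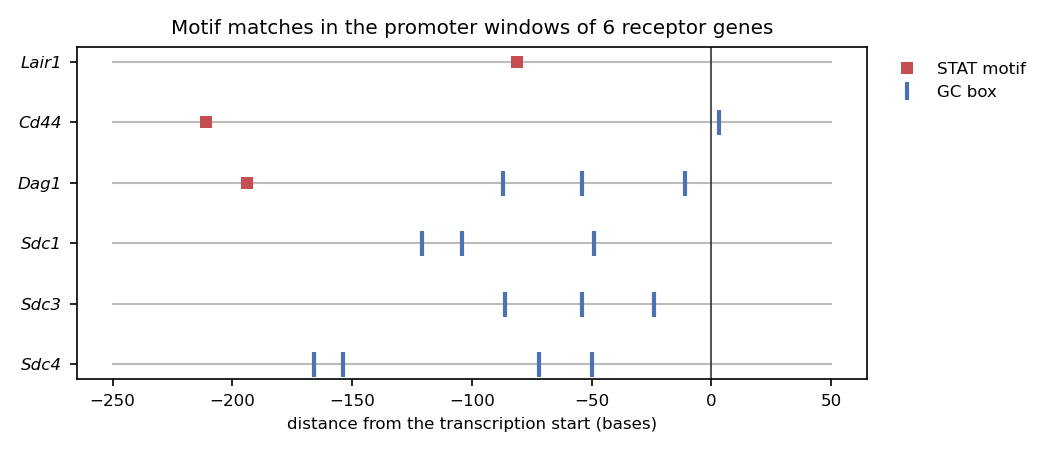
Positions of motif matches in the promoter windows of the 6 receptor genes that were tested, as the distance in bases of the first base of the match from the transcription start (0). Red squares mark the STAT motif, found in Lair1, Cd44 and Dag1, and blue bars mark the GC box, found in every gene shown except Lair1.

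The ligands and signalling partners of LAIR1 ranged widely in level. The complement chain C1qb, whose collagen-like tail LAIR1 can bind, was the highest of its list at 1984 to 4442 TPM, and the lung collectin Sftpd was listed at 0 in 11 libraries and at 0.126 TPM in the other. Of 7 tested genes of that list, 1 rose and 2 fell with IL-4 in low-collagen gels, where 13.2% of all tested genes rose and 40.4% fell, with a median log2 fold change of -0.10 against -0.19 over all genes. Csk, the kinase that the receptor recruits, rose by 0.39 (SE 0.077, adjusted p = 0.00797), and the collectin Colec12, a scavenger receptor with a collagen-like stalk, fell by 0.83 (SE 0.121, adjusted p = 0.00187). Colec12 was also higher in high- than in low-collagen gels with IL-4, at 19.3 and 20.1 TPM against 14.5 and 13 TPM (log2 fold change 0.49, adjusted p = 0.0635). In untreated gels against TC plates 3 of the 7 were higher and 4 lower, where 29.7% of all tested genes were higher and 46.7% lower, C1qb by +0.52 (adjusted p = 3.5e-05) and Csk by -0.53 (adjusted p = 6.83e-05).

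**Figure D3:**
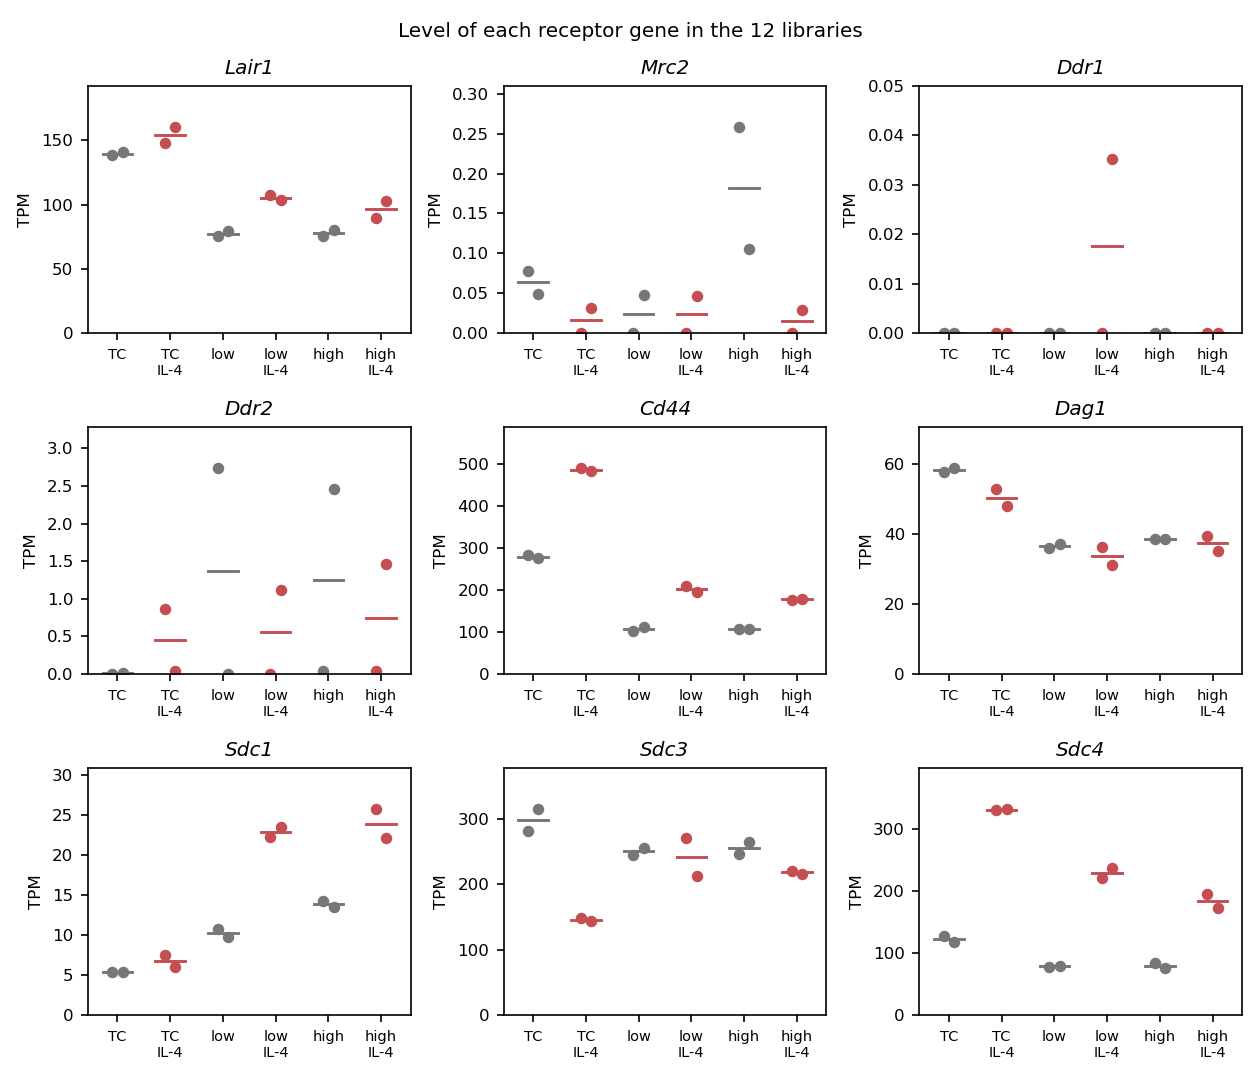
TPM of each of the 9 receptor genes in TC plates (TC), low-collagen gels (low) or high-collagen gels (high), grey without and red with IL-4; points are the 2 libraries of a condition, bars their mean, and each panel has its own axis from 0. Cd44 and Sdc4 rise with IL-4 in all 3 settings, Sdc1 is higher in gels than on TC plates, and Ddr2 spreads within single conditions.

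Cd44 (ENSMUSG00000005087, chr2:102811141-102901665, minus strand) had the widest range of the 9 genes, with condition means 2.18 apart on the log2(TPM + 1) scale. It was at 104 and 112 TPM in untreated low-collagen gels, 210.3 and 196 TPM in IL-4-treated low-collagen gels, 106 and 107 TPM in untreated high-collagen gels, 176 and 179.6 TPM in IL-4-treated high-collagen gels, 283 and 276 TPM on untreated TC plates and 490.1 and 484 TPM on TC plates with IL-4. The untreated gels overlapped each other, and every other pair of neighbours in the order of conditions was separate. Over all tested genes, 62.7% had no overlap between TC plates with and without IL-4, and 55.4% between the 2 gels with IL-4. IL-4 raised the mean 1.89-fold in low-collagen gels (log2 fold change 0.91, SE 0.0673, adjusted p = 6.28e-05), 1.67-fold in high-collagen gels (0.73, SE 0.0673, adjusted p = 0.000297) and 1.74-fold on TC plates (0.80, SE 0.0567, adjusted p = 6.68e-06). With IL-4 the high-collagen gels were lower than the low-collagen gels, 178 ± 2.62 against 203 ± 10.5 TPM (log2 fold change -0.19, SE 0.0673, adjusted p = 0.151). This call was lost in 8 of 17 alternatives, among them without the first untreated high-collagen library or any 1 of the 4 libraries compared (-0.24 to -0.14). Gels were below TC plates by 1.38 without IL-4 (log2 fold change -1.38, SE 0.0491, adjusted p = 1.95e-08) and by 1.35 with it (log2 fold change -1.35, SE 0.0491, adjusted p = 3.24e-08).

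Of the 14 genes of hyaluronan handling and of the ezrin, radixin and moesin linkers, 9 were tested in the gels. With IL-4 in low-collagen gels 4 rose and 1 fell (median 0.22, all genes -0.19), against 13.2% and 40.4% of all tested genes. In high-collagen gels 4 rose and the other 5 did not pass (median 0.34, all genes -0.10), against 11.5% of all tested genes that rose and 22.8% that fell. Moesin, Msn, the most abundant, rose by 0.53 (adjusted p = 0.00319) and 0.52 (adjusted p = 0.00545) in the 2 gels. Its level was 760.2 to 837 TPM on TC plates and 205 to 338 TPM in gels, and it was lower in untreated gels by 1.82 (log2 fold change -1.82, SE 0.0645, adjusted p = 1.89e-08). Radixin, Rdx, fell by 0.32 with IL-4 in low-collagen gels (adjusted p = 0.0662). The hyaluronan scavenger receptor Stab2 went from 4.53 and 5.01 to 12.3 and 13.6 TPM with IL-4 in low-collagen gels (log2 fold change 1.28, SE 0.233, adjusted p = 0.00553). With IL-4 it was lower in high-collagen gels, at 6.16 and 3.35 TPM (log2 fold change -1.32, SE 0.233, adjusted p = 0.0263). The lymphatic hyaluronan receptor Lyve1 did not pass 0.199 TPM.

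Across the 12 libraries the genes whose log2(TPM + 1) followed Cd44 most closely were Eef1g, a translation elongation factor subunit (Pearson r = 0.996), Snx1, a sorting nexin (0.993), and Rars, an arginyl-tRNA synthetase (0.991). For Sdc1 they were the kallikrein Klk1b11 (0.984), Tm2d2 (0.983) and Cdc42ep2 (0.982), for Sdc4 the lipase family gene Lipn (0.991), the receptor Cd200r1 (0.99) and the integrin β3 chain Itgb3 (0.988), and for Sdc3 the interferon-inducible Ifitm3 (0.951) with the nucleic acid sensing genes Tmem173 (0.936) and Ddx58 (0.934). These are descriptions over 12 libraries that share 6 conditions, and the ranges of Lair1 and Dag1 were too narrow for the rule, which asked for condition means at least 1 apart on the log2 scale.

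Sdc4 (ENSMUSG00000017009, chr2:164424247-164443887, minus strand) showed the steepest IL-4 response of the 6 tested genes in each of the 3 settings. It was at 78.1 and 79.1 TPM in untreated low-collagen gels, 221 and 238 TPM in IL-4-treated low-collagen gels, 83.3 and 75.2 TPM in untreated high-collagen gels, 195 and 173 TPM in IL-4-treated high-collagen gels, 128 and 117 TPM on untreated TC plates and 331 and 333 TPM on TC plates with IL-4. In every setting both IL-4 libraries lay above both untreated ones, where 61.2% to 68.2% of all tested genes had no overlap in either direction. The mean rose 2.92-fold in low-collagen gels (log2 fold change 1.53, SE 0.0839, adjusted p = 1.35e-05), 2.32-fold in high-collagen gels (1.21, SE 0.0839, adjusted p = 6.92e-05) and 2.7-fold on TC plates (1.43, SE 0.0781, adjusted p = 1.23e-06). With IL-4, Sdc4 was lower in high- than in low-collagen gels, 184 ± 15.1 against 229 ± 12 TPM (log2 fold change -0.32, SE 0.0839, adjusted p = 0.0765). The untreated gels did not differ beyond their spread (log2 fold change 0.01, 95% interval -0.18 to 0.20). The 2 IL-4 responses differed by -0.33 (high minus low collagen, SE 0.119), with an unadjusted p of 0.0258 by limma and an adjusted p of 0.456. The difference with IL-4 between the gels lost its call without the second library of the high-collagen gels (-0.23, adjusted p = 0.317) or of the low-collagen gels (-0.26, adjusted p = 0.311). Gels were below TC plates in both states (log2 fold change -0.63 untreated and -0.69 with IL-4, SE 0.0676 for each, adjusted p = 2.16e-05 and 1.18e-05).

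Sdc1 (ENSMUSG00000020592, chr12:8771323-8793715, plus strand) was the lowest of the tested genes and the one that was higher in gels than on TC plates both with and without IL-4. It was at 10.7 and 9.76 TPM in untreated low-collagen gels, 22.3 and 23.4 TPM in IL-4-treated low-collagen gels, 14.2 and 13.5 TPM in untreated high-collagen gels, 25.7 and 22.1 TPM in IL-4-treated high-collagen gels, 5.33 and 5.32 TPM on untreated TC plates and 7.43 and 5.93 TPM on TC plates with IL-4. All 8 gel libraries lay above all 4 TC libraries, though separation of gels from TC plates was common over all genes, as given for Lair1. The gel mean was higher by 1.03 without IL-4 (log2 fold change 1.03, SE 0.107, adjusted p = 1.74e-05) and by 1.67 with it (1.67, SE 0.107, adjusted p = 8.14e-07). IL-4 raised Sdc1 by 1.09 in low-collagen gels (SE 0.112, adjusted p = 0.000356), by 0.74 in high-collagen gels (SE 0.112, adjusted p = 0.00364) and by 0.27 on TC plates (SE 0.124, adjusted p = 0.151). The rise was larger in gels than on TC plates by 0.64 (SE 0.151, adjusted p = 0.025). Without IL-4, Sdc1 was higher in high- than in low-collagen gels, 13.8 ± 0.55 against 10.2 ± 0.689 TPM (log2 fold change 0.40, SE 0.112, adjusted p = 0.149). That call was lost in 9 of 17 alternatives, among them the removal of any 1 of the 4 libraries compared or of either low-collagen library with IL-4 (adjusted p = 0.209 to 0.383), and with IL-4 the gels overlapped (0.06, 95% interval -0.20 to 0.32).

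Sdc4 and Sdc1 each rose with IL-4 in gels, and neither promoter window held the STAT letters. Both held the GC box GGGCGG, the site of Sp1-family factors. It occurred on either strand in 35.7% of the 32851 windows and in 9 of the 12 receptor windows. Those windows belong to 6 of the 8 genes and partly overlap. The 6 genes include Sdc3 and Dag1, which were not called higher with IL-4 in any setting, and Cd44, which was. In the Sdc4 window (chr2:164443189-164443438, minus strand, within an intron of a longer annotated transcript) matches start 166, 154, 72 and 50 bases before the start. In Sdc1 they start 121, 104 and 49 bases before it, and the stretch with the first 2 is shown (chr12:8771182-8771322, plus strand, upstream of the gene). Capitals mark the GC boxes.
Sdc4: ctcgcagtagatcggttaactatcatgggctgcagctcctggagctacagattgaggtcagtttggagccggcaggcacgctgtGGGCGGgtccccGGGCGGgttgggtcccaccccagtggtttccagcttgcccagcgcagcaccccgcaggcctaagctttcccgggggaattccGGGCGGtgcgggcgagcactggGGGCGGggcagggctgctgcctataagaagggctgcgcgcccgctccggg
Sdc1: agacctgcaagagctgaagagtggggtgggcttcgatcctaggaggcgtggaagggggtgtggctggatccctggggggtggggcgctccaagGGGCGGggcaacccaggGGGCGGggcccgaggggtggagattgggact

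Sdc3 (ENSMUSG00000025743, chr4:130792537-130826319, plus strand) was the most abundant of the 9 genes on average and moved against Sdc4 on TC plates. It was at 245 and 256 TPM in untreated low-collagen gels, 270.3 and 213 TPM in IL-4-treated low-collagen gels, 246 and 265 TPM in untreated high-collagen gels, 219.7 and 216 TPM in IL-4-treated high-collagen gels, 280.3 and 314 TPM on untreated TC plates and 148 and 143 TPM on TC plates with IL-4. IL-4 lowered it on TC plates to 0.489 of the untreated mean (log2 fold change -1.03, SE 0.101, adjusted p = 6.27e-05). In low-collagen gels the libraries overlapped and the difference did not pass (-0.06, SE 0.106, adjusted p = 0.689), though it did without the first IL-4 library (-0.23, adjusted p = 0.0805). In high-collagen gels it fell by 0.23 (log2 fold change -0.23, SE 0.106, adjusted p = 0.191), a call lost in 11 of 17 alternatives, among them without any 1 of the 4 libraries compared (-0.28 to -0.18). With IL-4 the difference of -0.14 between high- and low-collagen gels (SE 0.106) did not pass (adjusted p = 0.474). It did in 2 of 17 alternatives, among them rescaled by the median ratio (-0.22, adjusted p = 0.195). The IL-4 response in gels was above that on TC plates by 0.88 (SE 0.124, adjusted p = 0.00193). Gels were above TC plates by 0.65 with IL-4 (SE 0.0878, adjusted p = 0.000109). Without IL-4 they were below by 0.23 (log2 fold change -0.23, SE 0.0878, adjusted p = 0.0413). This call was lost when libraries were rescaled by their median ratio (-0.06, adjusted p = 0.489) or quantile normalized (-0.10, adjusted p = 0.321) and without the second untreated TC library (-0.15, adjusted p = 0.294). Of the 31-base stretches of Sdc3 transcripts, 6.3% were found in some other gene too, the largest share among the 9 genes, so a small part of its reads may be divided between genes.

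The makeup of the syndecan transcripts is given as shares, with no test. Sdc3 held 67.4% and 71.9% of the summed syndecan TPM on untreated TC plates and 30.3% and 29.7% with IL-4. In low-collagen gels it went from 73.4% and 74.1% to 52.6% and 44.9%, and in high-collagen gels from 71.6% and 74.9% to 49.9% and 52.5%. Sdc4 held 67.9% and 68.9% on TC plates with IL-4, where it was the larger of the 2. It held 42.2% to 50.2% in gels with IL-4, where it was the larger only in the second low-collagen library (50.2% against 44.9%). Sdc1 took 1.22% to 1.53% on TC plates and 2.83% to 5.84% in gels. Sdc2 took at most 0.404% in any library.

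**Figure D4:**
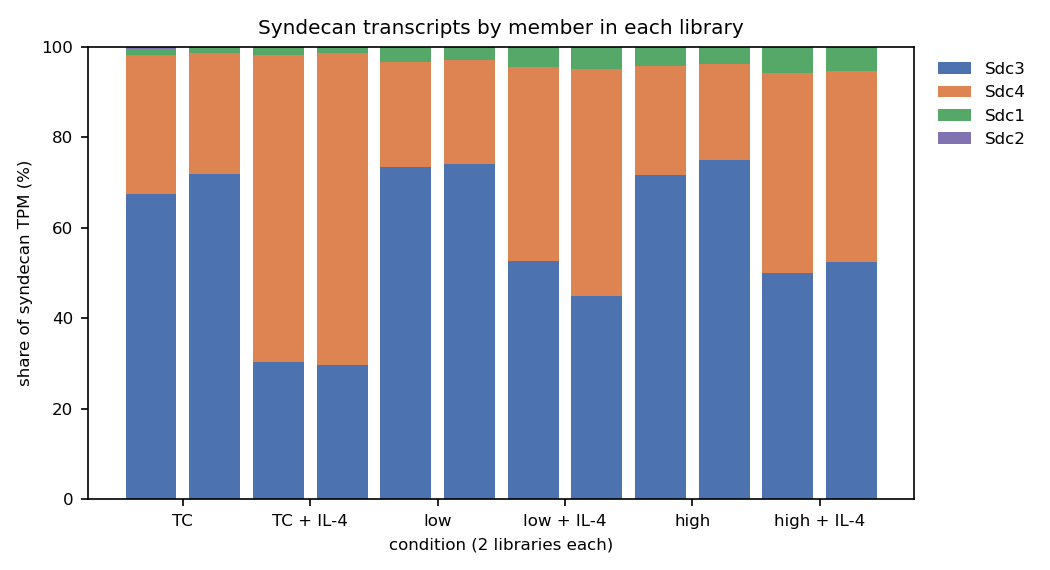
Share of the summed TPM of 4 syndecan genes held by each, in percent, for both libraries of each condition. Sdc3 (blue) holds over 67% of the sum in every untreated library and 29.7% to 52.6% with IL-4, and Sdc4 (orange) takes most of the rest.

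Among 9 other cell surface proteoglycans, Gpc1, the glypican-1 gene, was the highest. It went from 0.944 and 1.43 to 7.03 and 5.67 TPM with IL-4 in low-collagen gels (log2 fold change 1.75, SE 0.197, adjusted p = 0.000544) and from 3.1 and 4.58 to 13.5 and 14 TPM on TC plates (1.63, SE 0.191, adjusted p = 2e-04). Of the 2 tested in gels, Gpc1 alone passed in low-collagen gels. In high-collagen gels both did, Gpc1 higher by 1.51 (adjusted p = 0.00175) and the glypican-2 gene Gpc2 lower (log2 fold change -0.63, adjusted p = 0.169). Of 15 tested genes that build heparan sulfate or bind syndecan tails, 2 rose and 7 fell with IL-4 in low-collagen gels (median -0.12, all genes -0.19), shares near the 13.2% and 40.4% of all tested genes. In high- against low-collagen gels with IL-4, 3 were higher and the other 12 did not pass (median 0.12, all genes 0.06), where 14.1% of all tested genes were higher. Xylt2, one of the xylosyltransferases that start the sugar chain, fell by 1.06 with IL-4 in low-collagen gels (SE 0.122, adjusted p = 6e-04), from 76.6 and 84.9 to 36.8 and 39.4 TPM. Extl3, an enzyme of chain initiation, was higher in high-collagen gels with IL-4, at 12.8 and 12 TPM against 8.31 and 7.16 TPM (log2 fold change 0.62, SE 0.136, adjusted p = 0.0477). The syndecan adaptor syntenin, Sdcbp, was the most abundant of the list at 579 to 782 TPM and fell by 0.22 with IL-4 in low-collagen gels (adjusted p = 0.0354), whereas the adaptor Gipc1 rose by 0.19 (adjusted p = 0.143).

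Dag1 (ENSMUSG00000039952, chr9:108204634-108263958, minus strand) had the smallest range of condition means among the 6 tested genes, 0.78 on the log2(TPM + 1) scale. It was at 36.1 and 37.1 TPM in untreated low-collagen gels, 36.3 and 31.1 TPM in IL-4-treated low-collagen gels, 38.6 and 38.5 TPM in untreated high-collagen gels, 39.6 and 35.2 TPM in IL-4-treated high-collagen gels, 57.8 and 58.8 TPM on untreated TC plates and 52.8 and 47.9 TPM on TC plates with IL-4. All 4 TC libraries lay above all 8 gel libraries, a kind of separation common over all genes, as given for Lair1. Within each gel the libraries with and without IL-4 overlapped (-0.12, adjusted p = 0.396 in low-collagen gels and -0.04, adjusted p = 0.807 in high-collagen gels). The first of these passed without the first low-collagen library with IL-4 (-0.23, adjusted p = 0.184). The difference between the untreated gels was 0.07 (95% interval -0.16 to 0.30). Gels were lower by 0.62 without IL-4 (log2 fold change -0.62, SE 0.0794, adjusted p = 7.42e-05) and by 0.49 with it (log2 fold change -0.49, SE 0.0794, adjusted p = 0.000355). IL-4 lowered Dag1 on TC plates by 0.21 (log2 fold change -0.21, SE 0.0917, adjusted p = 0.14), a call lost in 5 of 20 alternatives, among them without either untreated TC library (-0.22 and -0.20) or the second IL-4 one (-0.14). Of 11 tested genes of the dystrophin-linked complex and of dystroglycan glycosylation, 5 fell with IL-4 in low-collagen gels and the other 6 did not pass (median -0.25, all genes -0.19), a share near the 40.4% of all tested genes that fell. Of 12 tested across all libraries, 8 were lower in untreated gels than on TC plates and the other 4 did not pass (median -0.47, all genes -0.15), where 46.7% of all tested genes were lower. The syntrophin Sntb2 was at 28.1 and 28 TPM on untreated TC plates and at 7.59 and 8.99 TPM in untreated low-collagen gels, and gels were lower by 1.58 (log2 fold change -1.58, SE 0.106, adjusted p = 8.05e-07). Sntb2 also fell by 0.69 with IL-4 in low-collagen gels (adjusted p = 0.0081) and was higher by 0.46 in high- than in low-collagen gels with IL-4 (adjusted p = 0.101). Pomk, a kinase that phosphorylates the sugar chain of dystroglycan, was the highest of the list at 47.8 to 115 TPM. The symbol Large was not analysed here.

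CD44, syndecans and dystroglycan can be cut from the surface by metalloproteinases. Of 3 tested genes for such proteases, 2 fell with IL-4 in low-collagen gels (median -0.33, all genes -0.19), where 40.4% of all tested genes fell, and 2 were higher in high- against low-collagen gels with IL-4 (median 0.20, all genes 0.06), where 14.1% were higher. Adam17, the sheddase of many surface proteins and the highest of them, fell by 0.33 with IL-4 in low-collagen gels (adjusted p = 0.0158). Mmp14, a membrane-bound collagenase, went from 7.05 and 8.67 to 3.45 and 3.68 TPM (log2 fold change -0.95, SE 0.143, adjusted p = 0.00224). In the presence of IL-4 its level was above this in high-collagen gels, at 5.97 and 5.67 TPM (log2 fold change 0.58, SE 0.143, adjusted p = 0.0645), and on TC plates it fell from 8.22 and 7.79 to 1.06 and 1.04 TPM (-2.13, SE 0.135, adjusted p = 3.14e-06).

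Read by comparison, IL-4 raised 4 of the 6 tested genes in low-collagen gels, Lair1, Cd44, Sdc1 and Sdc4, and the other 2 did not pass, in a comparison that called 53.6% of 11852 genes, 13.2% as higher and 40.4% as lower. The median of the 6 genes was 0.68 and that of all genes -0.19. In high-collagen gels Lair1, Cd44, Sdc1 and Sdc4 rose and Sdc3 fell, 5 of the 6, where 34.3% of genes were called, 11.5% as higher and 22.8% as lower (medians 0.52 and -0.10). The sum of the fibroblast markers given above was also higher with IL-4 in both gels, through Postn. The neutrophil sum was lower with IL-4 in low-collagen gels (14.47 to 20.25 against 22.66 to 30.44 TPM). In high-collagen gels it was 12.82 to 13.91 against 13.94 to 18.2 TPM. The T cell sum was lower with IL-4 in low-collagen gels (3.45 to 5.12 against 7.275 to 7.55 TPM) and overlapped in high-collagen gels. The part of these sums in these differences was not tested. On TC plates Cd44, Sdc1 and Sdc4 rose and Sdc3 and Dag1 fell, 5 of the 6, where 38.8% of 11865 genes were called, 14.7% as higher and 24% as lower. The call for Sdc1 there was lost without the first IL-4 library (0.13, adjusted p = 0.582) or either untreated one (adjusted p = 0.312 and 0.32).

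Fewer of them differed between high- and low-collagen gels. In the study these gels also differed in stiffness and pore size, which cannot be told apart from collagen concentration here. The neutrophil marker sum was lower in high- than in low-collagen gels without IL-4 (13.94 to 18.2 against 22.66 to 30.44 TPM). It was lower with IL-4 too (12.82 to 13.91 against 14.47 to 20.25 TPM), and the fibroblast and T cell sums overlapped. The part of the neutrophil sum in the differences below was not tested. With IL-4, Cd44 and Sdc4 were lower in high-collagen gels, 2 of the 6, where 21.1% of genes were called, 14.1% as higher and 6.99% as lower (median of the 6 genes -0.14, all genes 0.06). Untreated, Sdc1 alone of the 6 passed and was higher, where 8.02% were called, 3.23% as higher and 4.79% as lower. These shares over all genes rested on single libraries: 2500 calls with IL-4 became 715 to 2678, and 951 untreated became 138 to 721, when 1 library was left out. The difference between the IL-4 responses of the 2 gels passed for 0 of 6 genes by limma, against 0.363% of all genes (0.194% more positive and 0.169% more negative in high-collagen gels). Among the other collagen receptors, Cd36 was higher in high-collagen gels with IL-4 (338 and 341 against 223 and 211 TPM, log2 fold change 0.64, SE 0.0896, adjusted p = 0.0146) and Stab1 was lower (193 and 186 against 294 and 312 TPM, -0.67, SE 0.122, adjusted p = 0.0288). IL-4 raised Mrc1 by 1.26 (SE 0.104, adjusted p = 0.000121) and lowered Stab1 by 1.27 (log2 fold change -1.27, SE 0.122, adjusted p = 0.00025) in low-collagen gels. There 2 of 5 tested receptors of that list rose and 1 fell, where 13.2% of all tested genes rose and 40.4% fell. In the same gels IL-4 raised Itgb1 by 0.13 (SE 0.0614, adjusted p = 0.134).

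Gels against TC plates separated all 6 genes. Untreated, Lair1, Cd44, Sdc3, Sdc4 and Dag1 were lower and Sdc1 was higher, where 76.4% of genes were called, 29.7% as higher and 46.7% as lower, so most genes of these cells were called as well. With IL-4, Sdc1 and Sdc3 were higher and the other 4 lower, where 77.5% were called, 25.7% as higher and 51.8% as lower. The IL-4 response differed between gels and TC plates for Lair1, Sdc1 and Sdc3, each more positive in gels, where 27.1% of genes were called, 10.8% as more positive and 16.4% as more negative. Cd44 (0.02, 95% interval -0.13 to 0.18), Sdc4 (-0.06, -0.27 to 0.16) and Dag1 (0.13, -0.12 to 0.38) did not pass. The gels and the plates differ in geometry, in the presence of collagen and in the recovery of RNA from gel, which cannot be told apart here. The macrophage, neutrophil and T cell marker sums given above were also higher in gels, as was the fibroblast sum with IL-4. The part of these sums in these differences was not tested. In bulk RNA, fewer cells of a type and less RNA per cell cannot be told apart.

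**Figure D5:**
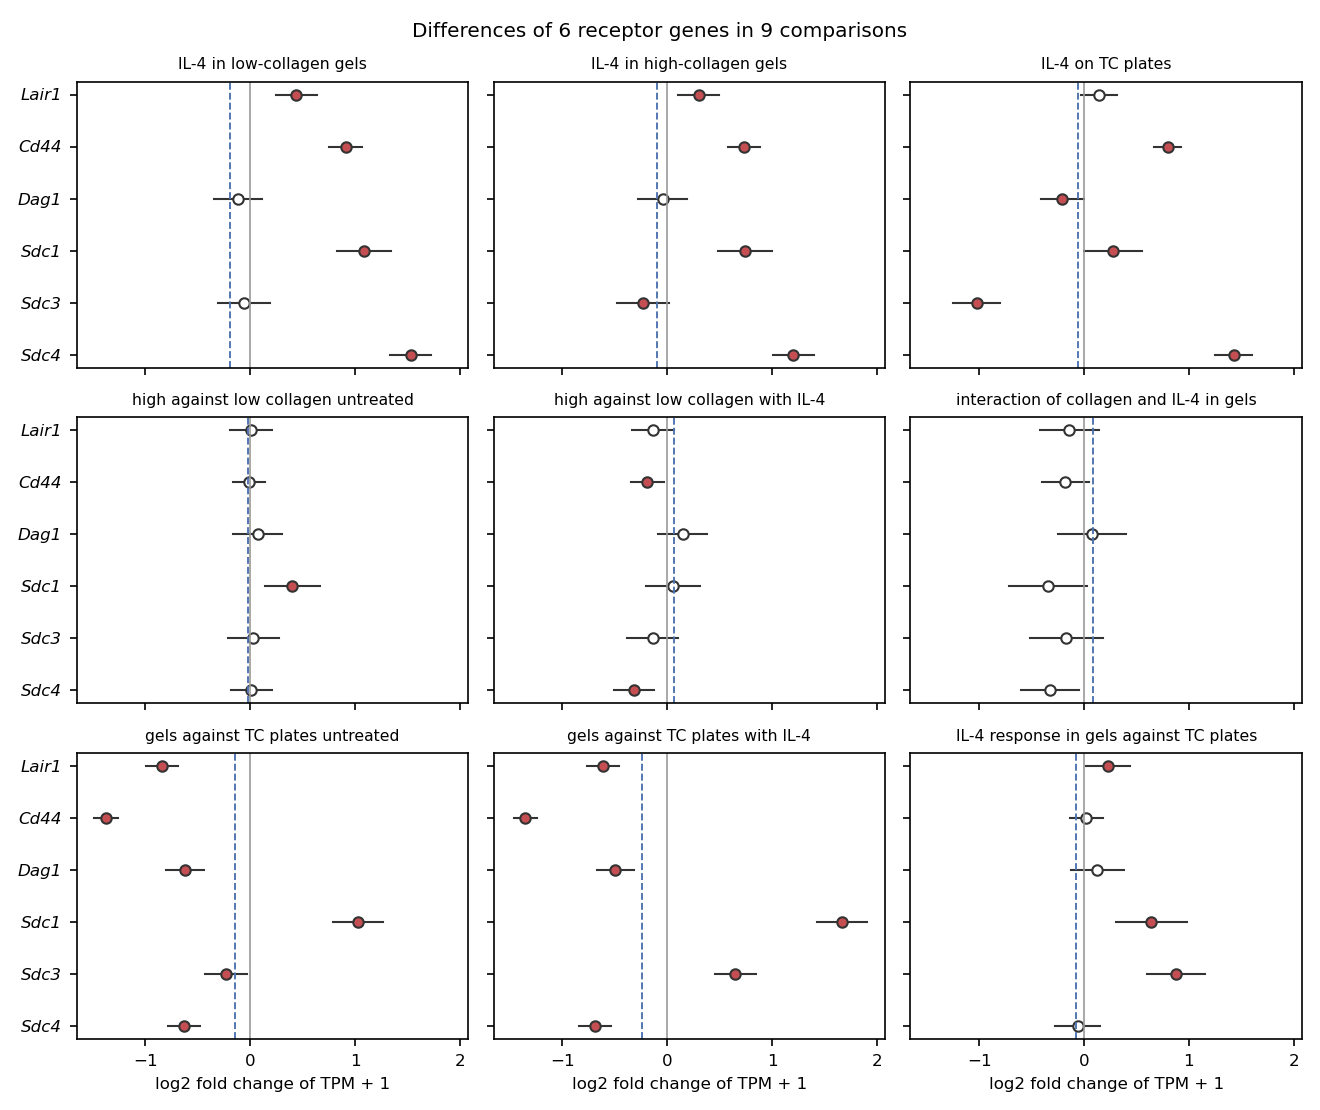
Log2 fold change of TPM + 1 of the 6 tested receptor genes in 9 comparisons, as points with 95% intervals, filled red where the adjusted p is under 0.2. The dashed blue line is the median of all genes tested and the grey line is 0; Cd44, Sdc1, Sdc4 and Lair1 lie to the right of both lines in the 2 IL-4 comparisons within gels.

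The medians of all genes were below 0 in several comparisons, which a rescaling of each library by its median ratio to the gene-wise geometric mean moved to 0.00 for IL-4 in low-collagen gels (from -0.19), for untreated gels against TC plates (from -0.15) and for gels against TC plates with IL-4 (from -0.24). Higher and lower calls went from 1567 and 4784 to 2846 and 2417 in the first of these, from 3524 and 5537 to 4481 and 4528 in the second and from 3054 and 6143 to 4495 and 4524 in the third. They went from 1366 and 2698 to 2012 and 1733 for IL-4 in high-collagen gels. They went from 1672 and 828 to 1165 and 1386 for high against low collagen with IL-4, from 383 and 568 to 442 and 428 for the untreated gels. They went from 23 and 20 to 14 and 24 for the difference of the IL-4 responses in gels. Finally, they went from 1745 and 2853 to 2298 and 2361 for IL-4 on TC plates and from 1278 and 1940 to 1820 and 1185 for the IL-4 response in gels against TC plates. On the rescaled values no called receptor gene changed direction, but 3 calls were lost: Sdc3 for IL-4 in high-collagen gels (-0.12, adjusted p = 0.428) and for untreated gels against TC plates (-0.06, adjusted p = 0.489), and Dag1 for IL-4 on TC plates (-0.15, adjusted p = 0.281). Other calls were gained: Lair1 (-0.22, adjusted p = 0.146) and Sdc3 (-0.22, adjusted p = 0.195) for high against low collagen with IL-4, and Lair1 for IL-4 on TC plates (0.20, adjusted p = 0.054). The IL-4 rise in low-collagen gels was then 0.65 for Lair1, 1.12 for Cd44, 1.29 for Sdc1 and 1.75 for Sdc4, while Sdc3 (0.15) and Dag1 (0.09), which did not pass in either form, changed sign.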

How the data were processed

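RNA was sequenced from 12 samples of BMDMs in 6 conditions. The authors made stranded, paired-end mRNA libraries and estimated transcript abundances with kallisto 0.46.1 on Ensembl transcripts of GRCm38. They deposited 1 table of TPM per gene and library. How transcripts were joined into genes is not given in the sources used here. TPM keep no depth (totals were 999658 to 999723), so no counting interval could be given.

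Of 34456 lines, 129 repeated another line and were collapsed. Conditions came from the labels. Values were tested on log2(TPM + 1), which understates changes of low genes, with limma 3.58.1 in R 4.3.3 (1 mean per condition, mean-variance trend, Benjamini-Hochberg adjustment) over the genes that averaged 1 TPM or more in the libraries of the fit. Contrasts within gels used the 8 gel libraries and the others all 12. Calls were made at an adjusted p under 0.2, after the threshold of the study. With 2 libraries a side an exact permutation test cannot go below p = 0.33, so none was used. The pipeline was tested on simulated data.

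The receptor genes and all gene lists were chosen with earlier results of these data known. Other genes were named by rule: all other collagen receptors and integrin chains by level, the highest gene of each list, its largest called rise and fall for IL-4 in low-collagen gels and for high against low collagen with IL-4, and the 3 genes with the highest correlation to each receptor gene whose condition means spanned at least 1. Alternatives covered the pseudocount, the filter, the trend, rescaling, quantile normalization, a replicate block, an adjusted p of 0.05, the libraries in the fit and each library left out. Comparisons of single gel types with TC plates were added after the data were seen. Loci came from GENCODE M21 and promoters from RefSeq.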

Additional observations from a re-analysis of the deposited data

Results flagged for a closer look

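In 3 of the 6 tested receptor genes the response to IL-4 differed between gels and TC plates by limma's test of the difference itself. For Sdc3 it was more positive in gels by 0.88 (log2, SE 0.124, adjusted p = 0.00193), since IL-4 lowered it on TC plates by 1.03 (log2 fold change -1.03) and moved it by -0.06 and -0.23 in low- and high-collagen gels. For Sdc1 it was more positive in gels by 0.64 (SE 0.151, adjusted p = 0.025), with rises of 1.09 and 0.74 in the 2 gels and 0.27 on TC plates. For Lair1 it was more positive in gels by 0.23 (SE 0.0948, adjusted p = 0.159), with 0.44 and 0.30 in the gels and 0.14 on TC plates, a call lost in 11 of 22 alternatives, among them without either untreated TC library (0.24 and 0.22), the first IL-4 TC library (0.17), the first untreated high-collagen library (0.21) or the second high-collagen library with IL-4 (0.18). Over all genes the comparison called 27.1%.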

How the results depend on the processing

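Over the 6 tested genes, 9 comparisons and all alternatives, 958 of 1026 values kept their call and direction, 58 lost a call, 10 gained one and 0 reversed a call; in 30 the sign changed where neither value was called. The number of receptor genes called for IL-4 in high-collagen gels was 5 and became 3 at an adjusted p under 0.05 (3 to 5 with 1 library left out). For high against low collagen with IL-4 it was 2, and became 1 without the mean-variance trend, 4 with median-ratio rescaling, which added Lair1 and Sdc3, 1 with the replicate block and 0 at an adjusted p under 0.05 (0 to 2 with 1 library left out). For the untreated gels it was 1, and became 0 with no filter, with the replicate block and at an adjusted p under 0.05 (0 to 1 with 1 library left out). For IL-4 on TC plates it was 5 and became 3 at an adjusted p under 0.05 (3 to 6 with 1 library left out). The cause was not tested, except that the stricter threshold calls fewer genes by construction. In the other 5 comparisons the number stayed within 1.5 times. A library left alone in its condition was assumed to vary like the others.

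With no filter, Mrc2, Ddr1 and Ddr2 entered the test and 1 value passed, a difference of -0.22 for Mrc2 with IL-4 in high-collagen gels (adjusted p = 0.174), between levels under 0.26 TPM. The replicate numbers did not pair the libraries: deviations of same-numbered libraries correlated at -0.123 to 0.109 over 15 pairs of conditions, with 1 over 0.1. The block moved the calls over all genes from 951 to 586 for the untreated gels and from 43 to 18 for the difference of the IL-4 responses in gels, and by less than 1.5 times elsewhere. Over all genes an adjusted p under 0.05 left 3656 of 6351 calls for IL-4 in low-collagen gels, 1890 of 4064 in high-collagen gels, 561 of 2500 for high against low collagen with IL-4, 63 of 951 untreated, 7 of 43 for the difference of the IL-4 responses in gels, 2710 of 4598 for IL-4 on TC plates and 1303 of 3218 for the IL-4 response in gels against TC plates. The 951 calls became 567 with no filter and 548 without the trend, the 43 became 66, 26 and, with all 12 libraries in the fit, 95, and the 3218 became 2050 with high-collagen gels only.

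Single libraries moved these counts by over 1.5 times. The 6351 became 4218 without the second low-collagen library with IL-4, and the 4064 became 2578 without the first untreated and 2470 without the first IL-4 library of the high-collagen gels. With IL-4, the 2500 became 1276 and 715 without the first and second high-collagen libraries and 1427 and 721 without the low-collagen ones. Untreated, the 951 became 190 and 138 without the first and second high-collagen libraries and 249 without the second low-collagen one. The 43 became 10 to 22 without any 1 of 6 libraries, namely the first untreated high-collagen, the second untreated low-collagen and the 4 IL-4 gel libraries, and the 3218 became 2098 without the first untreated TC library.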
